A study of Sus scrofa with 3 samples.

Results

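The ADAM, ADAMTS, ADAMTS-like, MMP and TIMP genes, which encode metalloproteinases, their catalytically inactive relatives and their inhibitors, were examined in spermatogonia of the pig. Members were the genes whose symbol in the deposited table was ADAM, ADAMTS, MMP or TIMP followed by a number, or ADAMTSL followed by 1 digit. This gave 63 of 18730 genes, made up of 18 ADAM, 19 ADAMTS, 5 ADAMTSL, 18 MMP and 3 TIMP genes. RNA came from germ cells of pigs aged 90 days that had been sorted for SSEA4, a glycolipid of the cell surface that the study put forward as a marker of spermatogonial stem cells. There were 3 libraries of this 1 group, here called S1, S2 and S3, and the labels name no strain, genotype or treatment. Nothing in the labels ties each library to an animal of its own, so SDs and p-values cover the variation among these 3 libraries, and that variation may be technical. Undifferentiated spermatogonia, named in the design as a second population, were not analysed here, so no gene is said to be enriched in SSEA4-positive cells.

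ADAM proteins are membrane-anchored and carry a metalloproteinase and a disintegrin domain. Some of them shed the outer parts of receptors, ligands and adhesion molecules from the cell surface, while a set made mainly in testis and epididymis acts on sperm, in mice in migration through the oviduct and in binding to the egg. ADAMTS enzymes are secreted and trim proteoglycans, procollagens and other matrix proteins, and the ADAMTS-like proteins share their accessory domains but have no protease domain. MMPs cut collagens, laminins and other matrix and surface proteins, and TIMPs block MMPs and some ADAM and ADAMTS enzymes. In the seminiferous tubule spermatogonia lie on a basement membrane made by Sertoli and peritubular cells.

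Levels are in FPKM, the number of fragments per kilobase of a gene for each 1000000 mapped, which allow levels of different genes to be compared. Every one of the 63 genes had a value above 0 in every library, from a mean of 0.0316 FPKM for MMP28 to 42.2 FPKM for TIMP1. A mean of at least 10 FPKM was reached by 5 genes (TIMP1, ADAM10, MMP2, ADAM17 and ADAM9), a mean of at least 1 FPKM by 30, and 7 stayed under 0.1 FPKM. The median level of the members was 0.95 on the scale of log2(FPKM + 1), beside 2.30 for all 17949 genes tested. Each gene's mean was tested against 1 FPKM with limma on log2(FPKM + 1), two-sided, with Benjamini-Hochberg adjustment over all 17949 genes and a threshold of 0.05. Log2 differences from 1 FPKM are given on this scale, where genes far above or below the level lie closer to it than on plain log2. By this test 26 of the 63 lay above 1 FPKM and 29 below it, and 8 were not told apart from it, whereas 65.6% of all genes tested lay above and 28.5% below. The level of 1 FPKM is a convention, and mitochondrially encoded transcripts took 52.7% to 59.3% of the summed FPKM of a library. Leaving out the mitochondrially encoded transcripts and the ribosomal protein genes and scaling up what remained, which raised the median of all genes by 1.14 on the log2 scale, put 39 members above and 11 below, or 61.9% and 17.5% beside 74.5% and 18.2% of all genes in that setting, and 5 of the 39 had been called below (ADAM15, ADAMTS4, ADAM7, MMP12 and MMP24).

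**Figure D1:**
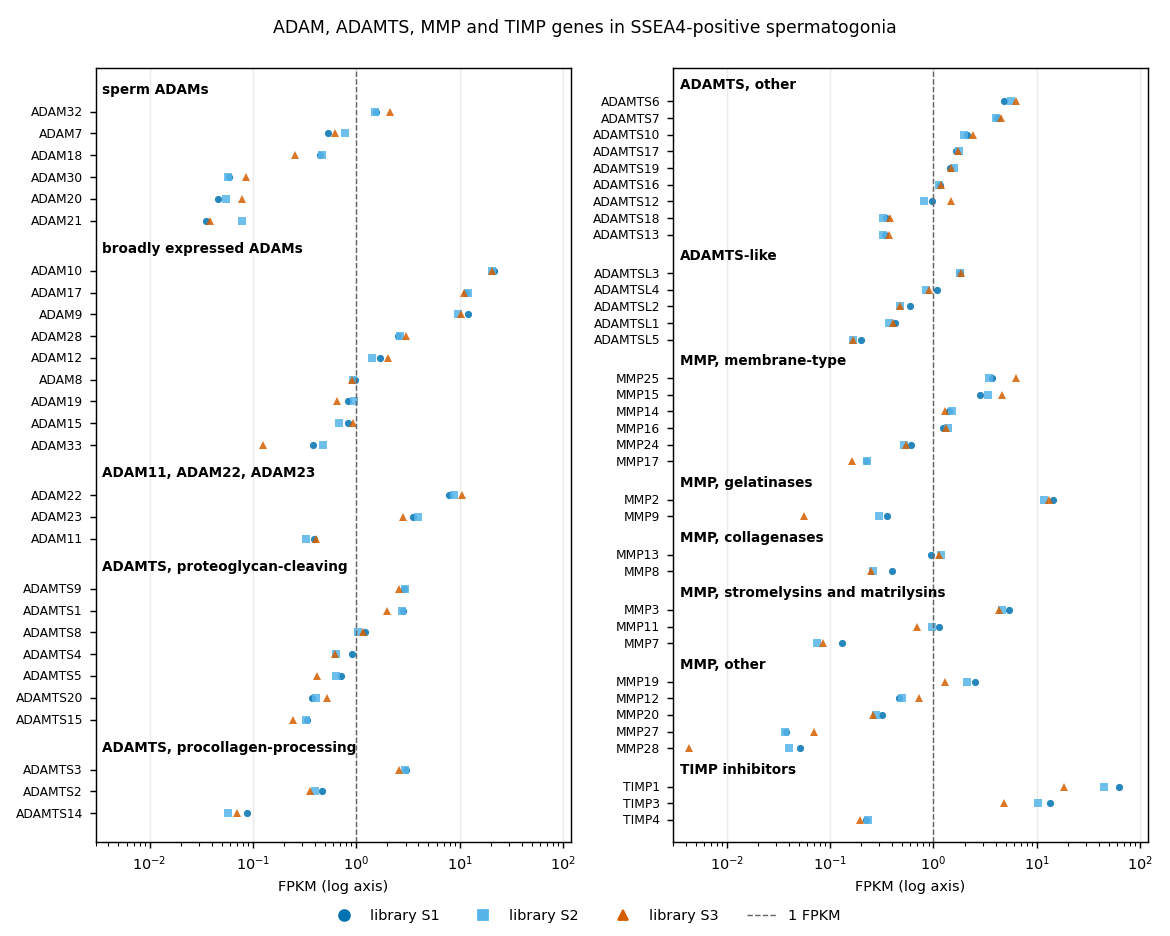
FPKM of the 63 genes in libraries S1 (circles), S2 (squares) and S3 (triangles) on a log axis, by role, with the level of 1 FPKM dashed. The row named MMP3 bears the symbol MMP1 in the reference table; TIMP1 and TIMP3 have their S3 value well to the left of the other 2 libraries, while most other genes above 1 FPKM have their 3 values close together.

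RNA of spermatogonial markers and of markers of other cells was read from gene lists, which do not settle what share of the cells were spermatogonia. All 9 measured spermatogonial markers lay above 1 FPKM, led by DDX4, the germ cell RNA helicase, at 81.5 ± 3.18 FPKM (SD, n = 3). The lowest of their means was 2.96 FPKM. RNA of genes that mark other testis cells was measured as well, and beside 65.6% of all genes above 1 FPKM there were 7 of 10 Sertoli, 3 of 6 Leydig, 11 of 12 peritubular and fibroblast, 3 of 6 endothelial and 1 of 9 leukocyte genes above 1 FPKM. The highest were CLU at 228 ± 100.1 FPKM for Sertoli cells, CYP11A1 at 8.13 ± 4.89 for Leydig cells, DCN at 31.4 ± 3.20 for peritubular cells, ERG at 8.20 ± 1.004 for endothelium and ITGAM at 3.78 ± 0.579 for leukocytes. No listed marker that was measured was at 0 in every library, and 5 of 14 spermatid genes lay above 1 FPKM.

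The ADAMs with an active protease domain that are expressed in tissues other than testis, called broadly expressed here although ADAM8, ADAM28 and ADAM33 are typical of fewer tissues, held the highest values of the ADAM family. Of these 9 genes, 5 lay above 1 FPKM (55.6%, beside 65.6% of all genes), 2 lay below and 2 were not told apart from it. Their median was 1.44 on the log2(FPKM + 1) scale, under the 2.30 of all genes. ADAM10 (ENSSSCG00000004595), the sheddase of Notch receptors, cadherins and the amyloid precursor protein, had FPKM values of 21.7 in S1, 20.4 in S2 and 20.7 in S3. With a coefficient of variation of 3.13% it was level across the libraries, and its lowest value exceeded the highest value of MMP2, the next gene in the order of means. ADAM17 (ENSSSCG00000008641), which releases TNF and ligands of the EGF receptor, stood at 11.5, 12.1 and 11.0 FPKM. ADAM9, a widely expressed ADAM with roles in shedding and adhesion, stood at 12.2, 9.70 and 10.3 FPKM, so its range overlapped that of ADAM17. The ratio of ADAM10 to ADAM17 within a library was 1.89, 1.69 and 1.88, a ratio that a scaling factor per library cannot change. ADAM10 stood at or above 79.9% of the genes tested, ADAM17 at or above 69.4% and ADAM9 at or above 68.0%. The log2 differences from 1 FPKM were 3.46 ± 0.05 for ADAM10, 2.65 ± 0.06 for ADAM17 and 2.54 ± 0.08 for ADAM9 (SE; limma, adjusted p = 8.6e-08, 2.9e-07 and 9.8e-07).

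The other members of the group were lower. ADAM28, known from lymphocytes and epididymis, stood at 2.51, 2.64 and 3.02 FPKM, and ADAM12, known from developing muscle and bone, at 1.70, 1.43 and 2.04 FPKM. Both lay above 1 FPKM (limma, adjusted p = 7.6e-05 and 0.0031). ADAM8, which is typical of leukocytes, had a mean of 0.937 ± 0.0359 FPKM (SD, n = 3) and ADAM19 one of 0.813 ± 0.158, and neither was told apart from the level (limma, adjusted p = 0.365 and 0.0688). ADAM15 lay just below it at 0.812 ± 0.123 FPKM (limma, adjusted p = 0.0487), a call that no longer passed the threshold in 7 of 10 alternative settings and turned in 1, with adjusted p from 0.00103 to 0.814. ADAM33, known from fibroblasts and smooth muscle, was the lowest of the group at 0.382, 0.481 and 0.125 FPKM, with the S3 value under a clear gap, and lay below 1 FPKM (limma, adjusted p = 0.0007).

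The sperm ADAMs stood much lower. Of 19 genes listed for this role across mammals, 6 were measured under the symbol rule. Of these, 1 lay above 1 FPKM (16.7%, beside 65.6% of all genes) and 5 below it, with a median of 0.28 on the log2 scale. ADAM32, a sperm protein that lacks the protease's active site, was the highest at 1.57, 1.51 and 2.14 FPKM and the only one of the 6 above the level (limma, adjusted p = 0.0038). ADAM7, best known from the epididymis, stood at 0.535, 0.777 and 0.624 FPKM, and ADAM18, a testis-expressed ADAM, at 0.443, 0.465 and 0.254 FPKM. ADAM30, ADAM20 and ADAM21, testis genes that keep the active site in humans, had means of 0.0669 ± 0.0163, 0.0596 ± 0.0169 and 0.0506 ± 0.0242 FPKM (SD, n = 3), and their ranges overlapped. Together the 6 genes held 4.00%, 4.50% and 4.82% of the summed ADAM level in S1, S2 and S3. The median of the broadly expressed ADAMs exceeded that of these 6 sperm ADAMs by 1.15 ± 0.22 on the log2 scale (SD, n = 3 libraries), in every library. The 6 leave out ADAM3A, a sperm ADAM in mice whose symbol falls outside the rule. It had a mean of 1.38 FPKM and lay above 1 FPKM (limma, adjusted p = 0.0399). Summed spermatid markers differed between libraries, at 138, 61.2 and 87.8 FPKM, much of it from the protamine PRM1 (51.0, 1.53 and 11.01). Without PRM1 the sums were 87.1, 59.7 and 76.8. Highest in S3 were 5 of 14 spermatid genes, beside 8120 of all 17949 genes tested, and most of the other spermatid genes were highest in S1. The summed levels of the 6 sperm ADAMs were 2.68, 2.94 and 3.22 FPKM in S1, S2 and S3. ADAM3A, which this sum leaves out, had 1.76, 1.24 and 1.15 FPKM, highest in S1, so the order of the sum depends on the symbol rule. The part of spermatids in these values was not tested. ADAM2 was not analysed here.

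The proteins ADAM11, ADAM22 and ADAM23 have no active protease site and are known mainly from the nervous system, where ADAM22 and ADAM23 bind secreted LGI proteins. ADAM22 stood at 7.96, 8.82 and 10.7 FPKM, the highest value being in S3. ADAM23 stood at 3.57, 3.94 and 2.86 FPKM, with S3 the lowest. Both lay above 1 FPKM (limma, adjusted p = 2.5e-06 and 6.8e-05), and ADAM11 at 0.374 ± 0.0425 FPKM lay below it (limma, adjusted p = 2.3e-05). ADAM22 exceeded every measured sperm ADAM in each library and ranked seventh in the whole family, directly behind TIMP3, whose range overlapped its own. ADAM10, ADAM17, ADAM9 and ADAM22 together held 78.7% ± 0.611 of the summed ADAM level (SD, n = 3).

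**Figure D2:**
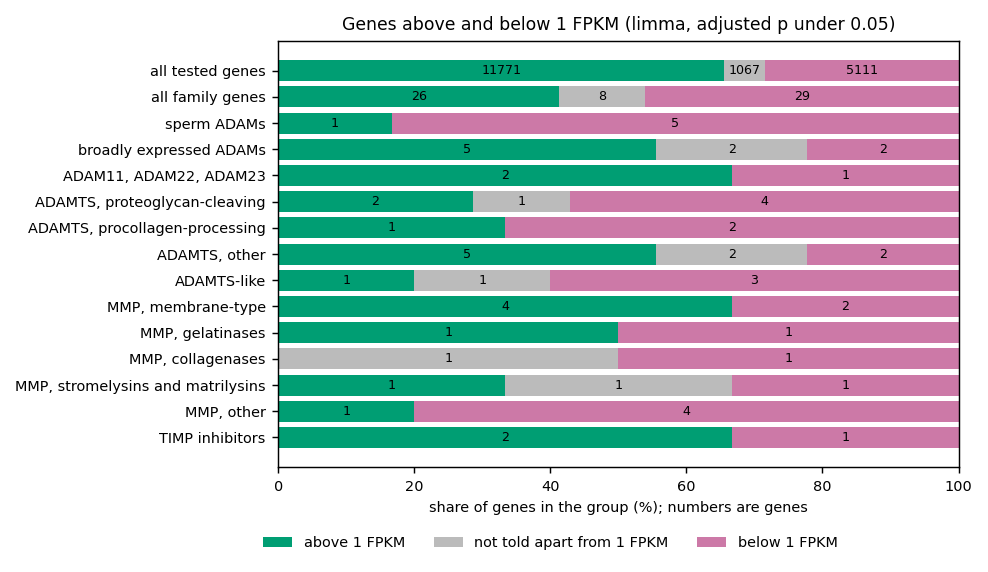
Share of genes in each role group that lay above 1 FPKM (green), below it (pink) or were not told apart from it (grey) by limma, with the number of genes written in each bar. All genes tested are in the top bar, with 65.6% above; 5 of 6 sperm ADAMs lie below and 5 of 9 broadly expressed ADAMs above.

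The ADAMTS genes were spread evenly around the level, 8 above, 8 below and 3 not told apart from it. The share above was 42.1%, beside 65.6% of all genes. The genes with the highest values were ADAMTS6, implicated in the fibrillin microfibrils of connective tissue, at 4.80, 5.68 and 6.33 FPKM, and ADAMTS7, which cleaves cartilage oligomeric matrix protein, at 4.08, 4.06 and 4.54 FPKM. These 2 genes held 32.7% ± 2.91 of the summed ADAMTS level (SD, n = 3). ADAMTS10, a fibrillin-binding relative of ADAMTS6, stood at 2.17 ± 0.243 FPKM, ADAMTS17 at 1.73 ± 0.0564 and ADAMTS19 at 1.499 ± 0.0687, all above 1 FPKM (limma, adjusted p = 0.0003, 0.00067 and 0.0025). ADAMTS16, needed for male fertility in rats, at 1.16 ± 0.0276 FPKM, was not told apart from the level (limma, adjusted p = 0.0861). The mean of ADAMTS12 was 1.08 FPKM, with 0.970, 0.803 and 1.48 in the libraries, so S3 stood over the level and the other libraries under it. ADAMTS18 at 0.351 ± 0.0284 FPKM and ADAMTS13, the liver protease of von Willebrand factor, at 0.347 ± 0.0226 lay below. Of these 9 genes, 7 had their highest value in S3 and 0 their lowest, beside 8120 and 6077 of all 17949 genes tested. The removal of mitochondrial and ribosomal protein genes turned this order to 2 highest and 6 lowest. It turned the whole table alike, from 50.04% highest and 33.1% lowest to 20.4% and 65.3% of genes that averaged 1 FPKM or more.

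Among the 7 ADAMTS genes for enzymes that cleave aggrecan, versican and related proteoglycans, 2 lay above 1 FPKM and 4 below. The share above was 28.6%, beside 65.6% of all genes. ADAMTS9, a versican-cleaving enzyme, stood at 2.91, 2.97 and 2.58 FPKM. ADAMTS1, which cleaves versican and is needed for normal ovulation in mice, stood at 2.84, 2.74 and 1.98 FPKM, with S3 the lowest. ADAMTS8 at 1.14 ± 0.0814 FPKM was not told apart from the level (limma, adjusted p = 0.139). The cartilage aggrecanases ADAMTS4, at 0.724 ± 0.166 FPKM, and ADAMTS5, at 0.591 ± 0.156, lay below (limma, adjusted p = 0.0183 and 0.0034), as did ADAMTS20 at 0.434 ± 0.0793 and ADAMTS15 at 0.301 ± 0.0498. The ADAMTS4 call no longer passed without S2 or after rescaling each library to a sum of 1000000, at log2 differences of -0.18 and -0.10, and turned to 0.50 with mitochondrial and ribosomal protein genes left out. Of the 7 genes, 5 had their lowest value in S3, beside 6077 of all 17949 genes tested, and the 5 ran from 4 to 6 under other scalings.

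Of the procollagen-processing enzymes, ADAMTS3, which also activates the lymphatic growth factor VEGFC, stood at 3.01, 2.94 and 2.58 FPKM and lay above 1 FPKM (limma, adjusted p = 5.4e-05). ADAMTS2, the main procollagen peptidase of skin, had 0.407 ± 0.0575 FPKM and ADAMTS14 0.0716 ± 0.0153, both below (limma, adjusted p = 4.7e-05 and 4.5e-07). The lowest value of ADAMTS3 was over the highest value of ADAMTS2.

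The ADAMTS-like genes were low. ADAMTSL3, a matrix protein, had 1.81, 1.80 and 1.85 FPKM, a coefficient of variation of 1.48% that was the lowest of the family as deposited but in none of the 3 other scalings (4.43% to 7.06%), and lay above 1 FPKM (limma, adjusted p = 0.00042). ADAMTSL4, mutated in human ectopia lentis, had 0.940 ± 0.121 FPKM, which did not differ from the level by the test (limma, adjusted p = 0.449). ADAMTSL2, a regulator of microfibrils, at 0.515 ± 0.0652, ADAMTSL1 at 0.401 ± 0.0260 and ADAMTSL5 at 0.178 ± 0.0200 lay below.

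MMP2 had the highest level of the MMP family. MMP2 (ENSSSCG00000002829), gelatinase A, which cuts basement membrane collagen, stood at 14.4, 11.9 and 13.1 FPKM, or 39.7%, 36.4% and 36.3% of the summed MMP level. The other gelatinase, MMP9, typical of neutrophils and macrophages, stood at 0.358, 0.296 and 0.0558 FPKM, with S3 far below the others. The log2 difference from 1 FPKM was 2.82 ± 0.07 for MMP2 and -0.70 ± 0.07 for MMP9 (SE; limma, adjusted p = 4.3e-07 and 0.00024).

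The membrane-type MMPs act on the cell surface and include the activators of MMP2. Of 6 genes, 4 lay above 1 FPKM, a share of 66.7% beside 65.6% of all genes. MMP25, which is held by a lipid anchor and is known from leukocytes, stood at 3.72, 3.48 and 6.24 FPKM, with S3 above both other libraries. MMP15, a transmembrane enzyme, showed the same order of S3 over the others, with 2.84, 3.36 and 4.60 FPKM. MMP14, the main activator of MMP2, was lower at 1.42, 1.52 and 1.30 FPKM, and MMP16 stood at 1.24, 1.38 and 1.33 FPKM. Both lay above 1 FPKM (limma, adjusted p = 0.0062 and 0.0118), but neither was told apart from it without S2, at log2 differences of 0.24 and 0.19. MMP24, an enzyme of nervous tissue, at 0.556 ± 0.0438 FPKM and MMP17 at 0.206 ± 0.0372 lay below. MMP14 was at most 1.52 FPKM, under the lowest value of MMP2 in every library.

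Among the secreted MMPs, the row named MMP3 in the deposited table (ENSSSCG00000014985) stood at 5.42, 4.58 and 4.33 FPKM. A reference table of Ensembl names gives this identifier as MMP1, so the files do not settle whether the value belongs to stromelysin 1 or to interstitial collagenase. It lay above 1 FPKM (limma, adjusted p = 1.1e-05). MMP19 stood at 2.54, 2.10 and 1.30 FPKM, lowest in S3, and lay above as well (limma, adjusted p = 0.0084). The collagenase MMP13 at 1.08 ± 0.116 FPKM and MMP11, a stromelysin activated inside the cell, at 0.932 ± 0.228 were not told apart from the level (limma, adjusted p = 0.356 and 0.498). Below it lay MMP12, the macrophage elastase, at 0.563 ± 0.145 FPKM, MMP8, the neutrophil collagenase, at 0.302 ± 0.0850, MMP20, the enzyme of tooth enamel, at 0.285 ± 0.0325, and MMP7, matrilysin, at 0.0967 ± 0.0300. MMP27 at 0.0482 ± 0.0190 FPKM and MMP28 at 0.0316 ± 0.0243 were the 2 lowest genes of the whole family.

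TIMP1 had the highest level of all 63 genes, and the TIMP sum varied more between libraries than the sum of any other family. TIMP1 (ENSSSCG00000012277), a secreted inhibitor of most MMPs and of ADAM10, had 62.8, 45.2 and 18.5 FPKM in S1, S2 and S3. TIMP3 (ENSSSCG00000031866), which is bound to the matrix and also inhibits ADAM17 and several ADAMTS enzymes, stood at 13.4, 10.2 and 4.82 FPKM. For both genes S1 was the highest library and S3 by far the lowest, with highest-to-lowest ratios of 3.39 and 2.78. TIMP4, known from heart and brain, stood at 0.221, 0.234 and 0.193 FPKM. TIMP1 and TIMP3 lay above 1 FPKM by 4.27 ± 0.32 and 2.29 ± 0.25 on the log2 scale and TIMP4 below it by -0.72 ± 0.03 (SE; limma, adjusted p = 5.0e-05, 0.00028 and 2.3e-06). TIMP2 was not analysed here, so the TIMP sums leave it out.

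The levels of inhibitor and protease transcripts were compared within each library. Summed TIMP levels were 76.4, 55.7 and 23.5 FPKM, and summed MMP levels were 36.3, 32.7 and 36.2 FPKM. The TIMP sum was thus 2.11, 1.70 and 0.651 times the MMP sum, over it in S1 and S2 and under it in S3. TIMP1 was 4.36, 3.801 and 1.41 times MMP2, above it in each library, whereas TIMP3 was 0.931, 0.862 and 0.367 times MMP2. The summed ADAM level was 66.5 ± 0.969 FPKM and the summed ADAMTS level 30.01 ± 0.407 (SD, n = 3), and as deposited these sums moved little between the libraries. The ratio of TIMP1 to TIMP3 was 4.68, 4.41 and 3.84, so the 2 inhibitors kept a similar proportion while both were low in S3.

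**Figure D3:**
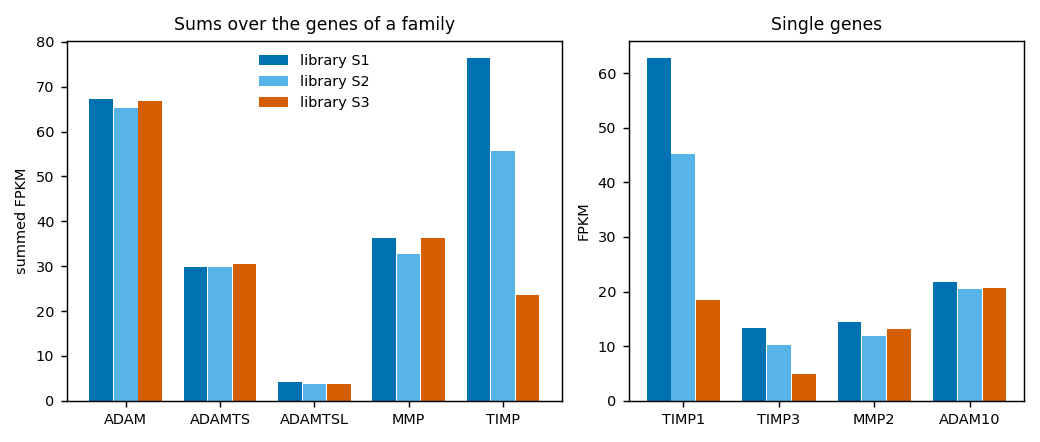
Left, summed FPKM of the genes of each family in libraries S1, S2 and S3, each bar being 1 library; right, FPKM of TIMP1, TIMP3, MMP2 and ADAM10. The TIMP sum is 76.4 in S1 and 23.5 in S3, while the ADAM sums lie between 65.4 and 67.2.

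On the log2(FPKM + 1) scale the S3 value of TIMP1 was -1.47 relative to the mean of S1 and S2, and that of TIMP3 was -1.13. Among the 12340 genes that averaged 1 FPKM or more, 0.194% had a lower such difference than TIMP1 and 0.567% a lower one than TIMP3, given as a description of these libraries. Genes near 1 FPKM have less room to fall on this scale, so these shares also depend on level. No comparison with genes of a like level was made. The differences were -1.35 and -1.03 after rescaling each library to a sum of 1000000, -1.71 and -1.41 without the mitochondrial and ribosomal protein genes, and -1.54 and -1.13 after quantile normalization. MMP25 and MMP15 lay on the other side, at 0.65 and 0.45, and kept that direction in the same 3 settings, at 0.54 to 0.79 and 0.33 to 0.58. Of the 30 members that averaged 1 FPKM or more, 10 were lowest and 12 highest in S3, shares of 33.3% and 40.0% beside 33.1% and 50.04% of all such genes. These counts moved with the scaling, to 7 lowest and 19 highest when rescaled to 1000000 and to 20 lowest and 7 highest without the mitochondrial and ribosomal protein genes, as did those of all such genes (18.99% and 69.1%, then 65.3% and 20.4%). Their median coefficient of variation was 11.0%, beside 9.34% for all such genes. Over all 63 members, 6 differed more than 2-fold between libraries, namely TIMP1, TIMP3, ADAM33, MMP9, ADAM21 and MMP28. Of these, 5 were lowest in S3, ADAM21 being the exception, beside 6077 of all 17949 genes tested. ADAM33, MMP9, ADAM21 and MMP28 had means of at most 0.329 FPKM, where such a ratio rests on small values. Among members that averaged 1 FPKM or more, 6.67% (TIMP1 and TIMP3) differed more than 2-fold, beside 2.94% of all such genes.

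**Figure D4:**
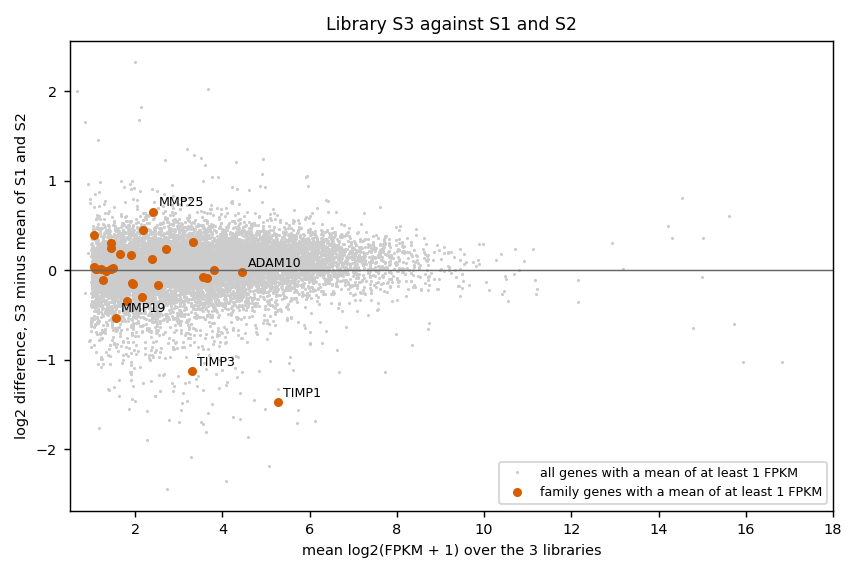
Difference in log2(FPKM + 1) of library S3 from the mean of S1 and S2 against the mean over the 3 libraries, for all 12340 genes that averaged 1 FPKM or more (grey) and the 30 members among them (orange). TIMP1 at -1.47 and TIMP3 at -1.13 lie at the lower edge of the cloud, MMP25 at 0.65 near the upper edge, and ADAM10 close to 0.

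Summed markers of other cells also differed between the libraries. Summed Sertoli markers were 421, 314 and 192 FPKM in S1, S2 and S3, with 8 of 10 genes lowest in S3, and summed Leydig markers were 17.8, 14.7 and 7.57 FPKM, with 4 of 6 lowest there. Peritubular and fibroblast markers summed to 131, 102 and 88.2 FPKM, with 7 of 12 lowest in S3, and endothelial markers to 20.7, 19.6 and 16.2 FPKM, with 5 of 6 lowest. As deposited, 6077 of all 17949 genes tested were lowest in S3. Without the mitochondrial and ribosomal protein genes, 65.3% of genes that averaged 1 FPKM or more were lowest there. Leukocyte markers, at 8.58, 8.44 and 9.55 FPKM, and spermatogonial markers, at 294, 284 and 368 FPKM, were highest in S3. Without the gene of each list whose FPKM range was widest, an alternative chosen after seeing the data, the Sertoli sum (96.2, 80.1 and 66.6 without CLU) and the endothelial sum (11.4, 11.5 and 8.98 without ERG) were still lowest in S3, as they were in the 3 other scalings with and without that gene. The peritubular sum was not, at 93.8, 77.2 and 79.3 without TAGLN (37.2, 24.4 and 8.87), nor was the Leydig sum, at 5.84, 4.92 and 4.93 without CYP11A1 (12.01, 9.75 and 2.64). The spermatogonial sum was 244, 241 and 270.2 without NANOS3 (50.04, 43.7 and 98.1), and 636, 656 and 623, lowest in S3, when mitochondrial and ribosomal protein genes were left out as well. The leukocyte sum with all its genes was also lowest in S3 without the mitochondrial and ribosomal protein genes, at 22.4, 23.0 and 22.0. The part of these cells in the TIMP values was not tested, and in sorted cells measured in bulk fewer cells of a type and less RNA per cell cannot be told apart. MMP2 and ADAM10 had S3 values between those of S1 and S2 as deposited. Rescaled to 1000000, S3 was the highest for both, at 16.78 against 16.75 and 13.9 for MMP2 and 26.5 against 25.2 and 23.9 for ADAM10, and without the mitochondrial and ribosomal protein genes S3 was the lowest for both, at 30.2 against 37.5 and 32.4 for MMP2 and 47.8 against 56.5 and 55.6 for ADAM10.

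**Figure D5:**
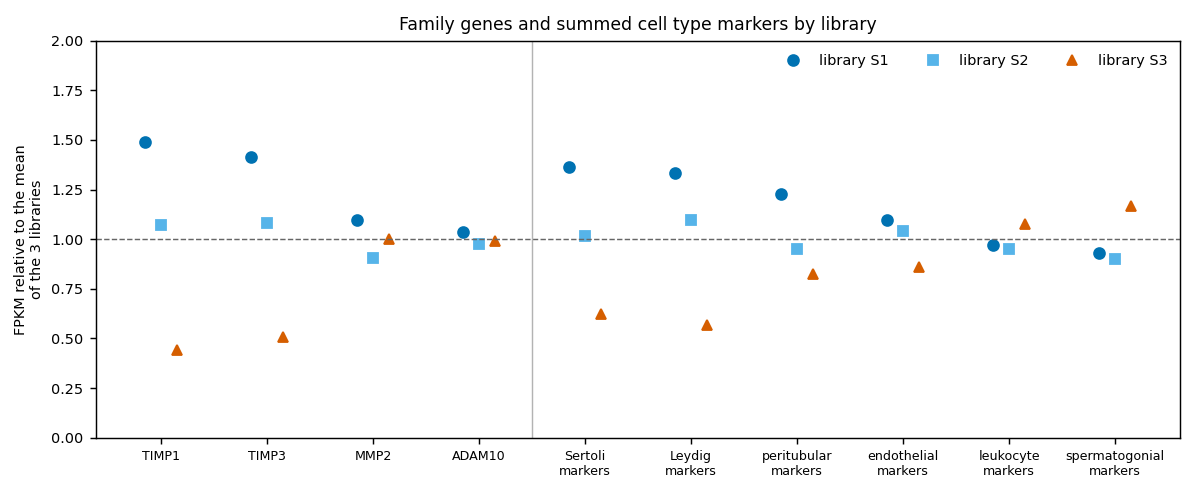
FPKM of TIMP1, TIMP3, MMP2 and ADAM10 and summed FPKM of 6 lists of cell type markers in each library, relative to the mean of the 3 libraries. S3 (triangles) is lowest for TIMP1, TIMP3 and the Sertoli, Leydig, peritubular and endothelial lists, and highest, in the values as deposited with all genes of each list, for the leukocyte and spermatogonial lists; the leukocyte list is lowest in S3 without mitochondrial and ribosomal protein genes.

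Genes that act with ADAM10 and ADAM17 were measured beside them. Of 13 regulators, namely the tetraspanins that escort ADAM10, the iRhoms that escort ADAM17, the iRhom partner FRMD8 and the proprotein convertases, 12 lay above 1 FPKM and 0 below, beside 65.6% and 28.5% of all genes, with a list median of 2.92 on the log2 scale beside 2.30 for all genes. TSPAN14, an ADAM10 tetraspanin, stood at 52.3, 46.8 and 38.7 FPKM, FURIN, which removes the inhibitory prodomain, at 22.2, 15.8 and 18.3, and TSPAN33, another ADAM10 tetraspanin, at 17.7, 16.2 and 14.8. The lowest, RHBDF2 or iRhom2, at 1.13 ± 0.157 FPKM, was not told apart from the level (limma, adjusted p = 0.208). TSPAN14 had a higher FPKM than ADAM10 in each of the 3 libraries.

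Of 21 measured genes for proteins that ADAM10 or ADAM17 can shed, 15 lay above 1 FPKM and 6 below. The share above was 71.4% beside 65.6% of all genes, and the list median was 2.26 beside 2.30 for all genes. CD44, the hyaluronan receptor, was the highest at 54.8, 47.9 and 19.9 FPKM, lowest in S3 like TIMP1. NOTCH2, an ADAM10 substrate, stood at 24.4, 23.3 and 27.3 FPKM, and CDH2, N-cadherin, at 26.7, 23.5 and 18.6. TNF, the substrate that gave ADAM17 its older name, was the lowest at 0.0444 ± 0.0197 FPKM (SD, n = 3).

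A further list was drawn up for other metalloproteinase inhibitors and their relatives. Its measured genes, RECK, A2M, TFPI2 and 3 SPOCK genes, all lay above 1 FPKM, 6 of 6, beside 65.6% of all genes. Being on the list does not show that a gene encodes an inhibitor, and for SPOCK2 that role is not assumed here. SPOCK3, a testican proteoglycan, stood at 21.8, 22.1 and 26.5 FPKM, RECK, a membrane-anchored inhibitor of MMPs and ADAM10, at 9.42, 10.1 and 10.6, and TFPI2 at 7.30, 6.22 and 5.64, while the lowest was SPOCK2 at 2.32 ± 0.660. As deposited, RECK, unlike TIMP1 and TIMP3, was not lowest in S3, an order that can change with the scaling.

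In mice the surface protein ADAM3 reaches sperm only with the help of chaperones and other testis proteins. Of 7 measured genes of such factors, 5 lay above 1 FPKM (71.4%, beside 65.6% of all genes) and 2 below. Their list median was 3.60, over the 2.30 of all genes and the 0.28 of the sperm ADAMs under the symbol rule. The value for the sperm ADAMs leaves out ADAM3A, which had a mean of 1.38 FPKM and lay above 1 FPKM (limma, adjusted p = 0.0399). CLGN, calmegin, a testis chaperone of the endoplasmic reticulum, stood at 208, 206 and 222 FPKM, TPST2, a tyrosine sulfotransferase, at 14.3, 14.3 and 15.3, and ACE at 10.3, 10.3 and 13.9. CALR3 at 11.2 ± 1.76 FPKM and TEX101 at 4.31 ± 1.16 were also above the level, and PDILT at 0.546 ± 0.147 was below it; these 3 are named after their values were seen. PRSS37 was the lowest at 0.194 ± 0.170 FPKM (limma, adjusted p = 0.00019).

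Some members are neighbours in the genome, by the order of genes in a RefSeq table of the assembly Sscrofa11.1, in which 59 of the 63 symbols were found. MMP7, MMP20, MMP27, MMP8, MMP1, MMP3, MMP12 and MMP13 follow each other with no other protein-coding gene between them. Within this cluster the row named MMP3, at 4.78 ± 0.572 FPKM, stood over every other measured gene in each library, and only MMP13 came near 1 FPKM. ADAMTS8 and ADAMTS15 are adjacent, at 1.14 and 0.301 FPKM, and ADAMTS1 and ADAMTS5 have 2 genes between them, at 2.52 and 0.591 FPKM. In both pairs the lowest value of the first gene was over the highest of the second, and only ADAMTS8 and ADAMTS15 are directly adjacent.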

How the data were processed

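RNA was depleted of ribosomal RNA, made into directional libraries and read as 150 bp pairs, per the labels' protocols. Per the same protocols, cutadapt 1.9.3, HISAT2 2.0.4 and Cuffdiff were used, and the authors deposited the values as FPKM. The table's name says TPM instead, and the columns sum to 859642, 855276 and 781871, so each library was also rescaled to 1000000. The build is given as susScr3 and Sscrofa11.1 in the submitters' processing notes, so no coordinates are printed. No counts were given. Of 1105 genes below 0.15 FPKM, no more than 2 had an equal S1 to S2 ratio at 4 decimals, and no whole reads were recovered. Depth is unknown and no counting interval is given. Column names show the group but not which sample each is.

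Values under 1e-06, a limit chosen after the values were seen, were set to 0 (170 genes, 0 members). limma 3.58.1 in R 4.3.3 tested log2(FPKM + 1), with a pseudocount of 1, against 1 FPKM (intercept only, eBayes with trend, Benjamini-Hochberg over 17949 genes, 781 at 0 left out) and was tested on simulated data. Differences on the log2(FPKM + 1) scale understate changes of low genes, and the distance from 1 FPKM of both high and low genes. Of the members, 62 had the same symbol in a reference table. Role groups, partner lists and marker lists (spermatogonial, spermatid, Sertoli, Leydig, peritubular and fibroblast, endothelial, leukocyte), matched by reference symbol, and the naming rule were fixed with earlier results of these data known: any member, the 3 highest and the lowest gene of a partner list, and the highest of a marker list. Directly adjacent or near-identical gene copies could share reads.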

Additional observations from a re-analysis of the deposited data

How the results depend on the processing

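Alternatives were a pseudocount of 0.5 or 2, a mean of at least 0.5 FPKM, rescaling to 1000000, removal of 13 mitochondrially encoded and 63 ribosomal protein genes, quantile normalization, eBayes without trend, and leaving out each library. Of the 63 genes, 35 kept their direction and their side of the threshold in every alternative that tested them, among them 24 of 26 called above 1 FPKM, and 11 of 29 called below. Leave-one-out counts ran from 24 to 26 above and from 28 to 29 below. The filter at 0.5 FPKM left fewer low genes to test: 6 members below 1 FPKM, 2 shed substrates and 1 sperm ADAM maturation gene below, and 0.59 for the broadly expressed minus sperm ADAM median. With mitochondrial and ribosomal protein genes removed, which scales the rest up, these were 11, 3, 1 and 1.80. The sums were then 169 FPKM for ADAM, 76.3 for ADAMTS, 9.81 for ADAMTSL, 88.99 for MMP and 135 for TIMP genes. Rescaled to 1000000, they were 80.02, 36.1, 4.64 and 42.2 for the first 4.

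Log2 differences from 1 FPKM changed sign with mitochondrial and ribosomal protein genes removed for ADAMTSL4 (0.76), ADAM8 (0.76), MMP11 (0.74), ADAM19 (0.61), ADAM15 (0.61), ADAMTS4 (0.50), ADAM7 (0.40), ADAMTS5 (0.32), MMP12 (0.27), MMP24 (0.27), ADAMTSL2 (0.21), ADAMTS20 (0.065), ADAMTS2 (0.024), ADAMTSL1 (0.013), EGF (0.54), BTC (0.52), EREG (0.066) and PDILT (0.25). After rescaling to 1000000 they did so for ADAMTSL4 (0.089), ADAM8 (0.088) and MMP11 (0.073). Leaving out each library moved ADAMTS12 from -0.086 to 0.14 and MMP11 from -0.14 to 0.036, the other sign in both being without S3. No paired analysis was possible because every library belongs to 1 group. Depth is unknown, so its effect on low genes was not tested.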

Other observations

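Genes whose names are like those of the family but outside the symbol rule are given here as values, chosen after they were seen. ADAM3A, a sperm ADAM in mice, had values of 1.76, 1.24 and 1.15 FPKM in the libraries S1, S2 and S3 and lay above 1 FPKM (limma, adjusted p = 0.0399). It was therefore second to ADAM32 among the sperm ADAMs with a row, by a mean of 1.38 against 1.74 FPKM. ADAMDEC1, a secreted relative known from gut macrophages and dendritic cells, stood at 0.4997, 0.607 and 0.543 FPKM and lay below (limma, adjusted p = 0.00026). It lies between ADAM28, at 2.72 ± 0.261 FPKM (SD, n = 3), and ADAM7, at 0.646 ± 0.122, in the RefSeq gene order, and the range of ADAM28 was over those of both neighbours. MMP23B stood at 0.833, 0.587 and 0.461 FPKM, lowest in S3, and lay below 1 FPKM (limma, adjusted p = 0.0078).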
